A study of Rattus norvegicus with 30 samples.

Results

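Matrix metalloproteinases and their inhibitor were followed through 4 genes in rat median nerve: Mmp2 (ENSRNOG00000016695), Mmp3 (ENSRNOG00000032626), Mmp9 (ENSRNOG00000017539) and Timp1 (ENSRNOG00000010208). They were taken by gene identifier from a table of 32545 genes, and all 4 were found and passed the filter on low counts that left 16015 genes for testing. Poly-A RNA was sequenced from adult female wild-type rats. The controls were 5 healthy nerves with no treatment. In all other libraries the median nerve had been cut and an 8 mm gap bridged with a 10 mm conduit of chitosan, a polysaccharide made from chitin. The conduit was placed either at once (immediate repair) or 3 months after the injury (delayed repair), and tissue was taken after 7, 14 or 21 days. Immediate repair had 4, 4 and 5 libraries at days 7, 14 and 21, and delayed repair had 5, 4 and 3. The labels give no strain, no age beyond adult, and do not say that each library is its own animal, so the p-values measure the spread between these libraries. The design asks how far the regenerating tissue stands from healthy nerve, how it changes with time, and whether waiting before repair makes a difference.

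Matrix metalloproteinases are secreted or membrane-bound zinc enzymes that cut proteins of the extracellular matrix. They are made as inactive precursors that must be cleaved before they act, so the level of their RNA is not a measure of their activity. Mmp2 and Mmp9 are the gelatinases, which cut denatured collagen and the type IV collagen of basement membranes. Mmp3, stromelysin-1, cuts many matrix proteins and can activate the precursors of other metalloproteinases. Timp1 is a secreted inhibitor that binds active metalloproteinases and also the precursor of Mmp9. In injured peripheral nerve, Mmp9 is known from Schwann cells and invading macrophages and is tied to breakdown of the blood-nerve barrier, and Mmp2 is known for removing chondroitin sulfate proteoglycans that hold back axon growth.

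Of the 4 genes, 2 matched an entry in the RefSeq promoter table used here, Mmp3 and Timp1, and the 250 bases before their start sites are shown for the genes with the most and the least spread between libraries of a group. Mmp3 lies at chr8:12925031-12925280 on the plus strand and Timp1 at chrX:3771123-3771372 on the minus strand of GRCr8, both printed 5′ to 3′, with capitals marking the motifs searched.

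Mmp3: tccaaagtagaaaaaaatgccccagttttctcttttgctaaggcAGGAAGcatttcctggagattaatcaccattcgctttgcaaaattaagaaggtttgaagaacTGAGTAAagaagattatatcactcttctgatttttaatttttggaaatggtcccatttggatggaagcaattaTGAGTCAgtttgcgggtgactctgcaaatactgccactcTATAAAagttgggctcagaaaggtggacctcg

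Timp1: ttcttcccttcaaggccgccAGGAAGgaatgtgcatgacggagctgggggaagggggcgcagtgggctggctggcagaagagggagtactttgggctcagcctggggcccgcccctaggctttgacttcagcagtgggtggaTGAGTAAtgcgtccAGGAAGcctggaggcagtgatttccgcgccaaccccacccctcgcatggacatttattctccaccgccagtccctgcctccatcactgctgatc

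The motifs were chosen after the sequences had been seen and were searched on both strands. The AP-1 motif TGANTCA was present before Mmp3, 71 to 65 bases upstream of the start, and was not found in the window of Timp1. It occurs in 6.34% of 33469 RefSeq rat promoters of the same length. The related letters TGAGTAA, present in 2.38% of promoters, were found 144 to 138 bases before the start of Mmp3 and 108 to 102 bases before that of Timp1. The TATA box TATAAA, in 12.9% of promoters, was present 32 to 27 bases before the start of Mmp3 and was not found in the window of Timp1. The Ets motif AGGAAG, in 29.5% of promoters, was found once before Mmp3 (206 to 201 bases) and at 230 to 225 and 94 to 89 bases before Timp1. These are matches of letters, and binding was not measured. In the RefSeq annotation Mmp3 sits between the related genes Mmp1b and Mmp1, close to Mmp10, Mmp12 and Mmp8. How alike their sequences are was not examined, and any reads shared between them would make the Mmp3 counts uncertain. The span of Timp1 from start to end overlaps that of Syn1, a neuronal synapsin gene. Whether their exons overlap was not examined. The libraries were not stranded, so reads from any exon bases the pair might share could not be told apart by strand. Mmp2 and Mmp9 overlapped no other annotated gene.

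Library totals ran from 11958242 to 17334752 counts with a median of 14858868.5. Values below are CPM, counts brought to a common library size after scaling by the trimmed mean of M values (TMM), and each log2 fold change comes from edgeR's quasi-likelihood test, with the Benjamini-Hochberg adjustment taken over all 16015 genes and calls made at an adjusted p of 0.05. CPM is not divided by gene length, so levels are compared between groups within a gene and not between genes. One library stood apart from the rest: in delayed repair day 7 replicate 5, 98 genes were above 5 CPM and more than 10 times higher than in every other library, and they took 9.5% of its counts, against at most 8 such genes in any other library. The labelled tissue could not be checked against cell type markers, because the tables used here do not pair the file's identifiers with symbols.

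Mmp9 was the gene with the largest difference from healthy nerve among the 4. It was called higher than control in all 6 repair groups, by between 5.71 and 8.52 on the log2 scale, and ranked between 43rd and 186th of 16015 genes by log2 fold change. In the 5 control nerves Mmp9 was barely detected, at 0.208, 0.312, 1.04, 0.208 and 0.0810 CPM, which rests on 3, 5, 13, 3 and 1 counts, 25 in all (exact 95% Poisson interval 16.2 to 36.9, counting error only). In bulk tissue such as this, fewer cells of a type and less RNA per cell cannot be told apart. In immediate repair Mmp9 stood at 173, 96.1, 80.0 and 194 CPM at day 7. The values at day 14 were 31.9, 23.4, 157 and 132 CPM. At day 21 they were 146, 6.26, 84.1, 185 and 46.2 CPM. Every immediate library was above every control, and within days 14 and 21 the libraries spread widely, with replicate 2 the lowest on both days. In delayed repair the 5 libraries at day 7 held 99.9, 33.6, 111, 55.7 and 104 CPM. At day 14 the values were 47.1, 11.2, 72.2 and 11.3 CPM, and at day 21 they were 5.65, 15.6 and 36.9 CPM. The lowest conduit library, at 5.65 CPM, was still above the highest control, at 1.04 CPM. Of all genes tested, 11.9% also had every conduit library above every control library.

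The fitted increase of Mmp9 over control after immediate repair was 8.52 ± 1.02 (log2, SE) at day 7 (adjusted p = 9.77e-08), with 7.86 ± 1.00 (5.02e-07) on day 14 and 7.98 ± 1.00 (4.41e-07) on day 21. After delayed repair the day 7 value was 7.77 ± 0.99 (2.47e-07), followed by 6.58 ± 0.97 (3.93e-06) on day 14 and 5.71 ± 0.98 (4.08e-05) on day 21. Calls in the upward direction were common in these comparisons: of all genes tested, 30.2%, 26.1% and 24.8% were called higher at days 7, 14 and 21 of immediate repair, and 31.5%, 26.2% and 23.1% at the same days of delayed repair. These sizes lean on the few counts in control: without control replicate 3, which held 13 of the 25 counts, the 6 values ranged from 6.48 to 9.29. Without delayed day 21 replicate 3, the value at that day was 4.85 (adjusted p = 0.000563). Without the library that stood apart, the value at delayed day 7 was 7.66.

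**Figure D1:**
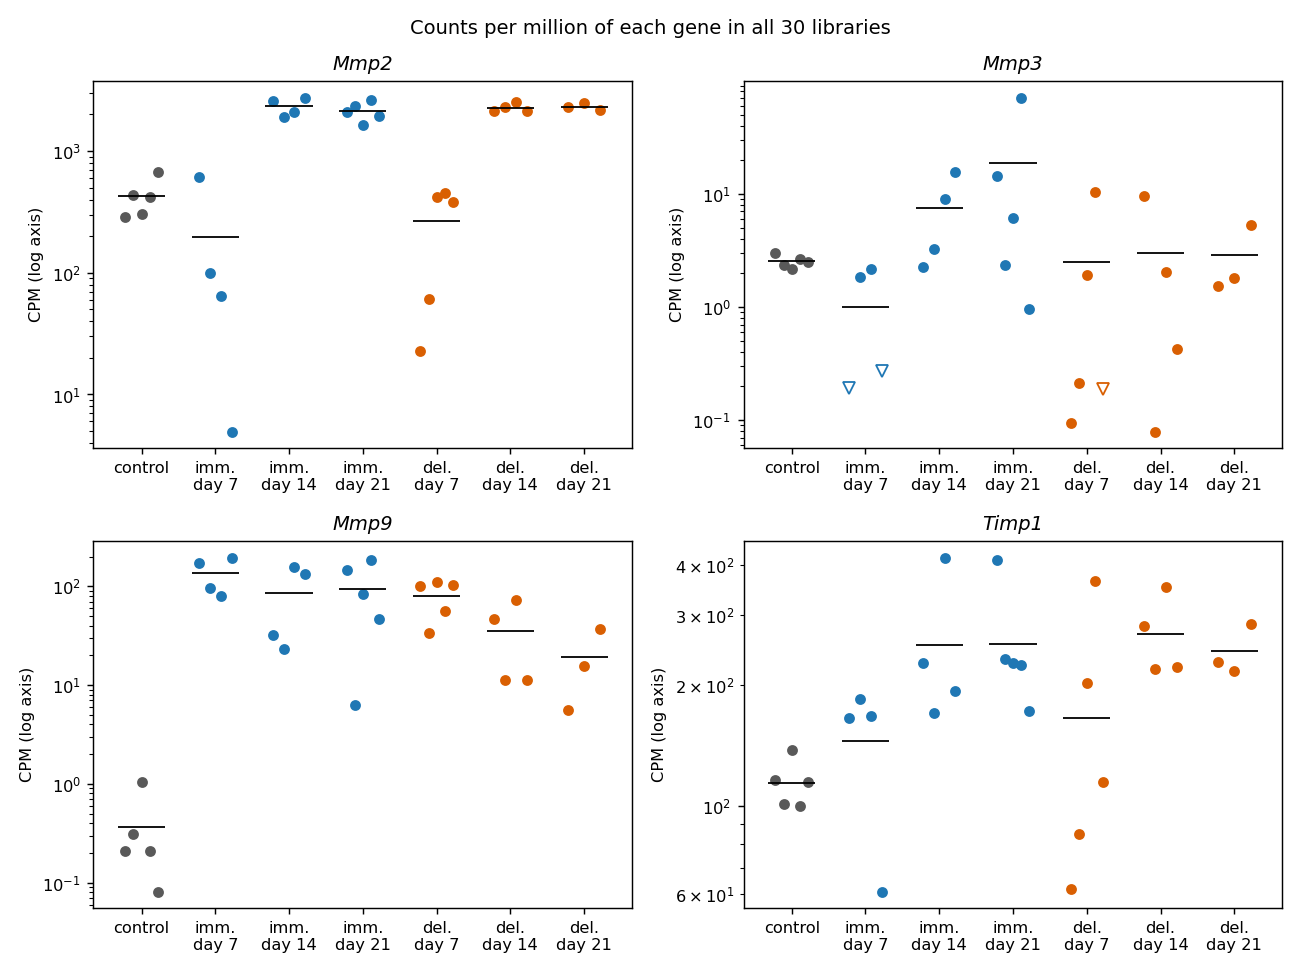
CPM of Mmp2, Mmp3, Mmp9 and Timp1 (vertical axis, log scale) in each of the 30 libraries, grouped along the horizontal axis by control, immediate repair and delayed repair at each day, 1 point per library, bars at group means and open triangles at the limit for libraries with 0 counts. Mmp9 lies at or below 1.04 CPM in the controls and at or above 5.65 CPM in all conduit libraries, while Mmp2 spreads from 4.96 to 616 CPM at day 7 and lies at or above 1644 CPM at days 14 and 21.

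Mmp2, the other gelatinase, was already abundant in healthy nerve and took a different course: at day 7 it did not pass the test against control in either repair, and at days 14 and 21 it rose about 5-fold in both. The control nerves held 288.5, 432, 306, 423 and 679.9 CPM. At day 7 of immediate repair the 4 libraries held 616, 101, 64.9 and 4.96 CPM. At day 7 of delayed repair the values were 22.8, 61.2, 422, 452 and 385 CPM. The day 7 libraries thus ran from far below the level of healthy nerve up to that level, and overlapped the controls in both repairs. At day 14 of immediate repair Mmp2 reached 2561, 1899, 2115 and 2747 CPM, and at day 21 it stood at 2085, 2344, 1644, 2626 and 1935 CPM. Delayed repair gave 2129.7, 2293, 2550.2 and 2143 CPM at day 14. At day 21 it gave 2316, 2464 and 2193 CPM. These 16 libraries lay close together, all above every control and every day 7 library, with the lowest at 1644 CPM against a highest day 7 value of 616 CPM. Every day 14 and day 21 library exceeded every control library in 16.8% of genes tested, and every day 7 library in 4.91%.

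Against control, Mmp2 was 2.45 ± 0.75 higher (log2, SE) at day 14 (adjusted p = 0.00838) and 2.32 ± 0.73 at day 21 (0.0106) of immediate repair. In delayed repair the increases were 2.42 ± 0.75 (0.00908) and 2.45 ± 0.79 (0.014). At day 7 the differences were -1.12 ± 0.76 after immediate repair (adjusted p = 0.199) and -0.67 ± 0.70 after delayed repair (0.413). The immediate value at day 7 hinged on replicate 1, the library at 616 CPM: without it the difference was -2.91 and was called as lower (adjusted p = 0.00166). It was also called with limma's voom weighting of single libraries, at -1.90 (adjusted p = 0.00347), and with voom and a weight per group, at -2.55 (0.00335).

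Within a repair, Mmp2 rose from day 7 to day 14 by 3.57 ± 0.86 on the log2 scale after immediate repair (adjusted p = 0.00271) and by 3.08 ± 0.77 after delayed repair (0.00397). By day 21 it was higher than at day 7 by 3.44 ± 0.84 (0.00189) and 3.11 ± 0.80 (0.00691). In these comparisons 19.5% (day 14) and 24.5% (day 21) of all genes were called higher than at day 7 after immediate repair, and 18.1% and 15.1% after delayed repair. Leaving out immediate day 7 replicate 1 made the immediate values 5.36 and 5.23. With only the groups compared in the fit, the immediate day 14 value was 3.59 (adjusted p = 0.0607) and the delayed day 21 value 3.13 (0.0634), both past the threshold no longer. From day 14 to day 21 Mmp2 differed by -0.13 ± 0.73 after immediate repair and by 0.029 ± 0.84 after delayed repair.

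Mmp2 and Timp1 were lowest in the same libraries at day 7. Immediate replicate 4 held 4.96 CPM of Mmp2 and 60.9 CPM of Timp1, and delayed replicate 1 held 22.8 and 61.8 CPM, each the lowest of its group for both genes. Mmp9 was not low there: 194 CPM was the highest of the immediate day 7 group and 99.9 CPM lay within the range of the delayed one. Without both libraries, a choice made after seeing the data, Mmp2 rose from day 7 by between 2.78 and 3.18 in the 4 comparisons of days 14 and 21 with day 7. What set these libraries apart was not tested.

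Timp1, the inhibitor, had the smallest of the called increases: it rose about 2-fold at days 14 and 21 in both repairs, and its day 7 values did not pass the test. In control nerve Timp1 stood at 116, 101, 137, 99.7 and 115 CPM. At day 7 it held 166, 185, 168 and 60.9 CPM after immediate repair and 61.8, 84.7, 202, 365 and 114 CPM after delayed repair. The day 7 libraries of both repairs lay on both sides of the controls, with delayed replicate 4, at 365 CPM, the highest. Immediate repair gave 227, 171, 416 and 193 CPM at day 14. At day 21 it gave 411, 233, 227, 225 and 172 CPM. Delayed repair gave 282, 219.8, 351 and 222 CPM at day 14 and 229, 217 and 284 CPM at day 21. All 16 day 14 and day 21 libraries were above all controls, which held in 16.8% of genes.

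The increase of Timp1 over control was 1.15 ± 0.39 (log2, SE) at immediate day 14 (adjusted p = 0.0152), 1.16 ± 0.37 at immediate day 21 (0.0121), 1.24 ± 0.39 at delayed day 14 (0.00912) and 1.10 ± 0.41 at delayed day 21 (0.033). At day 7 the differences were 0.35 ± 0.39 (0.438) after immediate and 0.54 ± 0.37 (0.198) after delayed repair. Single libraries decided 3 of the 4 calls. Without immediate day 14 replicate 3 that day's value was 0.79 (adjusted p = 0.104), and without immediate day 21 replicate 1 it was 0.91 (0.0506). The delayed day 21 call was lost on leaving out any of control replicates 1, 2, 4 and 5 or any delayed day 21 library, with values between 0.97 and 1.17 over all single libraries left out. Against day 7, Timp1 was higher by 0.81 at immediate day 21 (adjusted p = 0.0997). In delayed repair, without day 7 replicate 4, the library at 365 CPM, Timp1 was higher than at day 7 by 1.21 at day 14 (adjusted p = 0.0107) and by 1.07 at day 21 (0.0362), neither of them called with all libraries.

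Mmp3, stromelysin-1, was low and uneven, and it was not called against control in any of the 6 repair groups. In control nerve it was steady, at 2.99, 2.37, 2.15, 2.63 and 2.51 CPM, from 27 to 43 counts. At day 7 of immediate repair 2 libraries had no count (0 counts allow up to 0.193 and 0.270 CPM, taking 3 counts as the limit) and the others held 1.82 and 2.17 CPM. At day 7 of delayed repair the values were 0.0938, 0.212, 1.91, 10.3 and 0 CPM, where the last allows up to 0.188 CPM. Healthy nerves thus differed little from each other, while day 7 libraries ranged from none detected to about 4 times the control level. Mmp3 held 2.24, 3.26, 9.01 and 15.7 CPM at immediate day 14, and 14.5, 2.34, 6.10, 70.4 and 0.959 CPM at immediate day 21. In delayed repair it held 9.55, 0.0796, 2.03 and 0.429 CPM at day 14, and 1.54, 1.80 and 5.27 CPM at day 21. The highest library, immediate day 21 replicate 4, had 1155 counts, and the lowest of its group had 15. Each repair group had a library within the control range or libraries on both sides of it.

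The largest difference of Mmp3 from control was 2.89 ± 1.27 (log2, SE) at immediate day 21 (adjusted p = 0.0625). This value was 1.23 (adjusted p = 0.434) without immediate day 21 replicate 4, and it was called with DESeq2 at 2.87 (0.0356) and with the 2 groups fitted alone at 2.93 (0.0254). It was also called on leaving out immediate day 21 replicate 2 or 5, or delayed day 7 replicate 4 or 5, with values up to 3.20. The other 5 comparisons with control lay between -1.33 and 1.57, with adjusted p between 0.313 and 0.998. Of these, immediate day 14 was called with the 2 groups fitted alone, at 1.62 (adjusted p = 0.0179). Mmp3 was called higher at day 21 than at day 7 of immediate repair, by 4.22 ± 1.50 (adjusted p = 0.0254), although the ranges of the groups overlapped. The call was lost without immediate day 7 replicate 1 (3.80, adjusted p = 0.0566), without immediate day 7 replicate 4 (3.83, 0.0656) and without immediate day 21 replicate 4 (2.56, 0.132). It was also lost in 5 of 9 processing alternatives: with a replicate block (adjusted p = 0.0908), the 2 groups fitted alone (0.0688), voom with library weights (0.181), voom with a weight per group (0.117) and 2 day 7 libraries left out (0.0566). Between day 7 and day 14 of immediate repair the libraries did not overlap, with 2.17 CPM the highest at day 7 and 2.24 CPM the lowest at day 14, as held in that direction for 17.4% of all genes. That difference, 2.90, did not pass the test (adjusted p = 0.127).

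The spread between libraries of 1 group set how far these values could be resolved. The fitted biological coefficient of variation was 132% for Mmp3, 74.7% for Mmp9, 72.7% for Mmp2 and 40.2% for Timp1, against a median of 28.2% over all genes tested. Mmp3 varied more than 98.8% of genes, Mmp9 more than 88.6%, Mmp2 more than 87.6% and Timp1 more than 64.2%. For Mmp2 the spread came mostly from day 7, where the SD was 282 CPM around a mean of 196 CPM after immediate repair, against 135 around 2324 CPM at delayed day 21.

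Over all 4 genes, 1 of 4 (Mmp9) was called higher than control at day 7 in each repair and 3 of 4 (Mmp2, Mmp9 and Timp1) at days 14 and 21, and no other member passed the test. The share of all genes called higher was 30.2%, 26.1% and 24.8% at days 7, 14 and 21 of immediate repair and 31.5%, 26.2% and 23.1% of delayed repair. The median log2 fold change of the 4 genes was -0.38 and 0.27 at day 7 of immediate and delayed repair, and between 1.77 and 2.61 at the later days, where the median over all genes tested was between -0.00072 and 0.019. With these shares of all genes called in each direction, the counts over 4 genes are a description only.

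**Figure D2:**
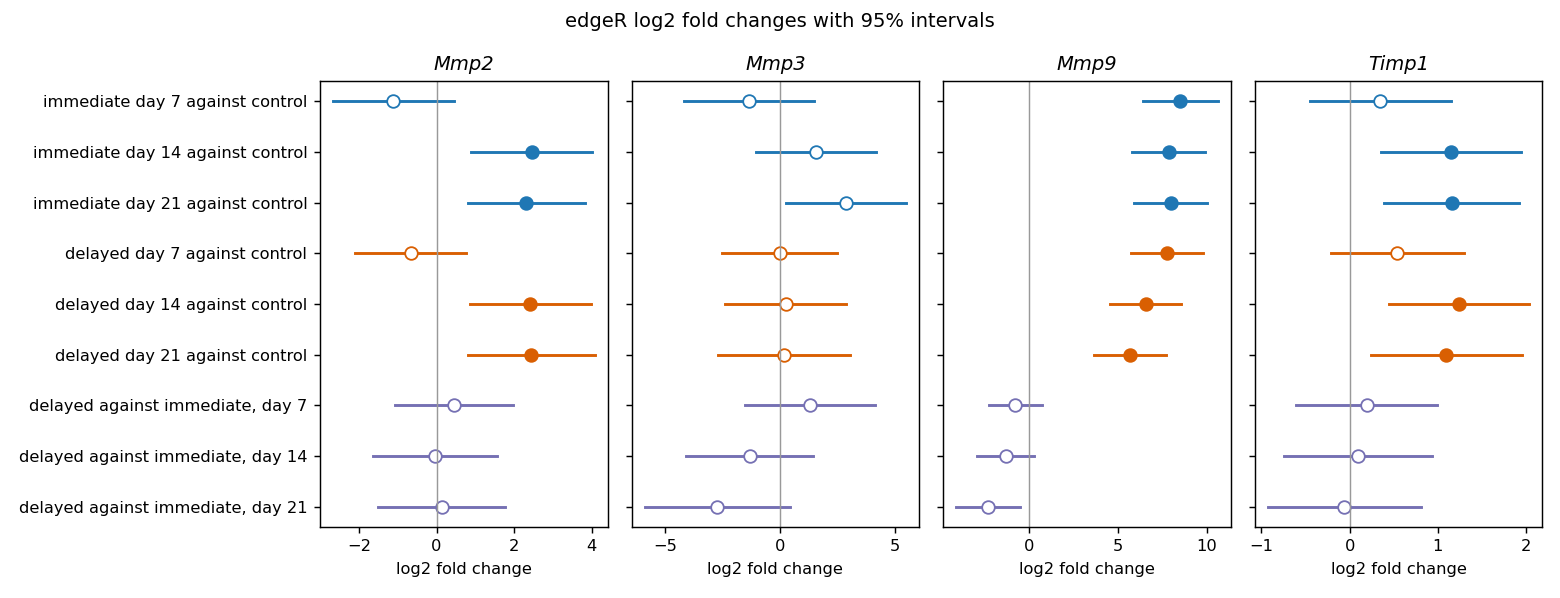
Log2 fold changes (horizontal axis, with its own range in each panel) of the 4 genes in the 6 comparisons with control and the 3 of delayed with immediate repair (rows), each point a fitted value with its 95% confidence interval, filled where called. Mmp9 is above 5 in all 6 comparisons with control, Mmp2 passes from -1.12 and -0.67 at day 7 to between 2.32 and 2.45 later, and no point is filled between the repairs.

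**Figure D3:**
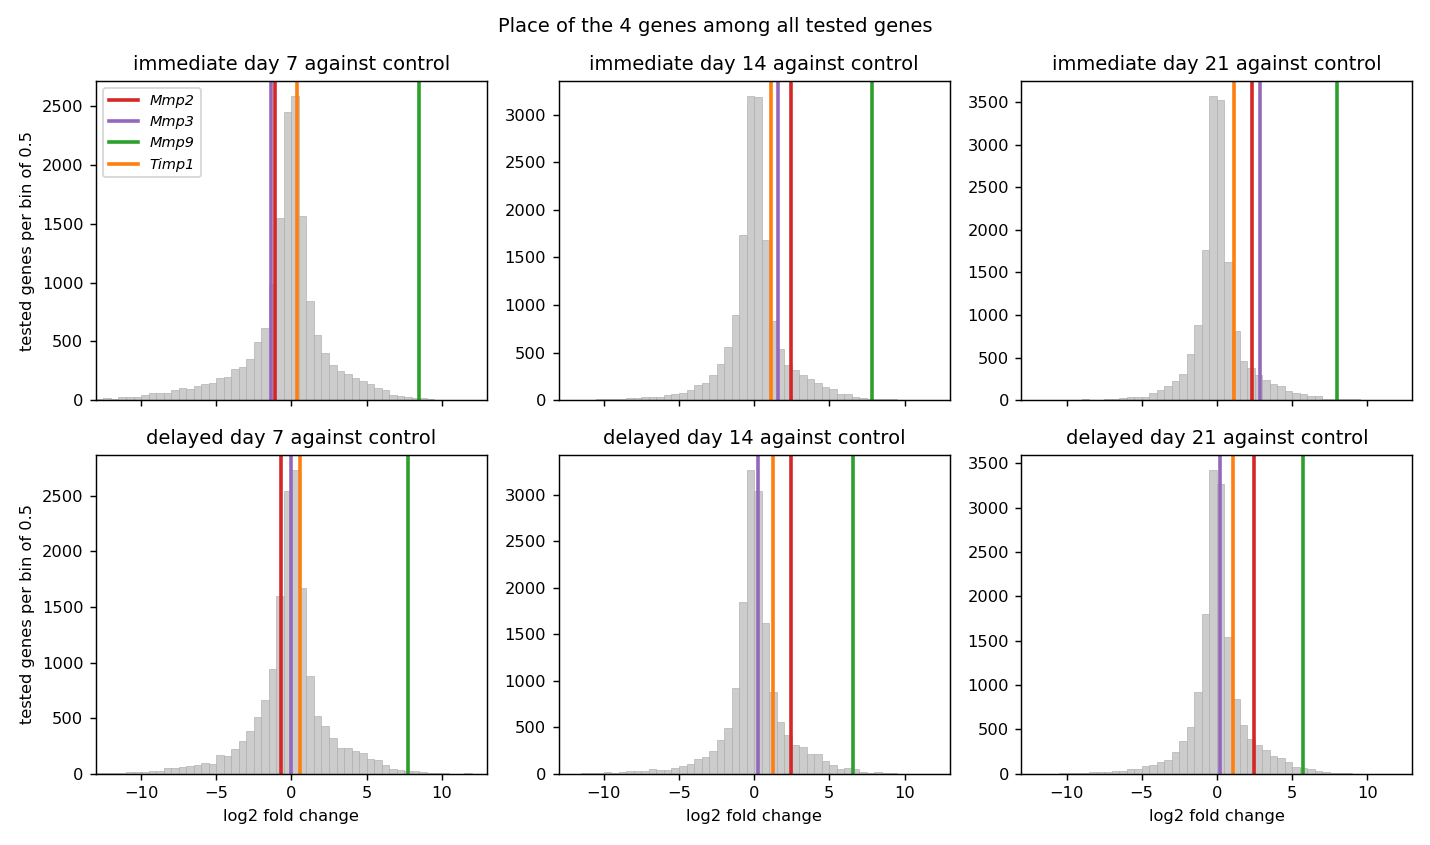
Distribution of the log2 fold changes against control over the 16015 genes tested in each repair group (horizontal axis log2 fold change, vertical axis number of genes), with the 4 genes marked. Mmp9 lies in the upper tail in every panel, at ranks 43 to 186, while Timp1 and Mmp3 lie nearer the bulk.

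Whether delay before repair changed these genes was tested at each day and over the mean of days, and none of the 4 was called. Mmp9 had the smallest unadjusted p of the 4 over the mean of days: its log2 difference, delayed minus immediate, was -0.75 at day 7 (95% interval -2.23 to 0.73), -1.28 at day 14 (-2.87 to 0.31) and -2.27 at day 21 (-4.06 to -0.48). The day 21 interval lay below 0 with an unadjusted p of 0.0151 in edgeR's test, and the adjusted p was 0.685. At day 21 the 3 delayed libraries held 5.65, 15.6 and 36.9 CPM, and 4 of the 5 immediate libraries were above all of them, while the remaining one, at 6.26 CPM, lay among them. Over the mean of days the difference of Mmp9 was -1.43 ± 0.45 (unadjusted p = 0.00396, adjusted p = 0.543), which ranked 128th from the lowest of 16015 genes. Few genes of any kind were called between the repairs: 0.712% at day 7, 0% at day 14, 0.05% at day 21 and 0% over the mean of days. At day 14 no gene was called by edgeR, 244 were under an unadjusted p of 0.05, DESeq2 called 7 and limma voom called 2. Over the mean of days the numbers were 994 unadjusted, 60 with DESeq2 and 0 with voom. DESeq2 and voom also called none of the 4 genes between the repairs on any day.

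Mmp2 at days 14 and 21 had nearly the same mean in both repairs, 2331 ± 391 CPM (SD, n = 4) against 2279 ± 196 CPM (n = 4), and 2127 ± 377 CPM (n = 5) against 2324 ± 135 CPM (n = 3). The fitted differences, delayed minus immediate, were -0.032 (95% interval -1.63 to 1.56) and 0.13 (-1.51 to 1.77). These intervals reach past 2-fold either way, but their width rests on 1 spread per gene fitted over all 7 groups. On day 7 the log2 CPM of Mmp2 had an SD of 2.85 (immediate) and 1.97 (delayed). Across the 4 later groups the SD ranged from 0.084 to 0.259. The intervals are therefore not a measure of the spread among the later libraries alone. For Timp1 the differences were 0.19 (-0.61 to 0.99), 0.093 (-0.75 to 0.93) and -0.058 (-0.93 to 0.81) at days 7, 14 and 21. Timp1 was the one gene of the 4 whose fitted interval excluded a 2-fold difference in both directions on each day, narrowly so at day 7. Its intervals rest on the same kind of shared spread. The log2 CPM of Timp1 had an SD of 0.75 (immediate) and 1.02 (delayed) on day 7, against 0.21 to 0.57 across the 4 later groups. The day 7 interval is therefore not a measure of the spread among the day 7 libraries alone. Mmp3 differed by 1.32, -1.31 and -2.71, with the last at an unadjusted p of 0.0901 and an adjusted p of 0.933. Mmp2 at day 7 differed by 0.45 (-1.08 to 1.98), and by 2.24 without immediate day 7 replicate 1 (adjusted p = 0.135). The test of whether the difference between repairs changed with the day gave unadjusted p of 0.9, 0.15, 0.389 and 0.909 for Mmp2, Mmp3, Mmp9 and Timp1 in edgeR's fit, and 0% of all genes passed after adjustment, with 951 genes under an unadjusted 0.05.

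From day 14 to day 21 none of the 4 genes was called in either repair, with Mmp9 at 0.12 after immediate and -0.87 after delayed repair. In that step edgeR called 0.256% of all genes after immediate repair and 0% after delayed repair, where 620 genes were under an unadjusted 0.05, DESeq2 called 36 and voom 69. From day 7 to day 21 of delayed repair the difference of Mmp9 was -2.06 ± 0.86 (adjusted p = 0.0772), and DESeq2 called it, at -2.07 (0.0334). It was called as well without delayed day 21 replicate 3 (-2.92, adjusted p = 0.0473) and without immediate day 21 replicate 2 (adjusted p = 0.0466).

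Each protease was also set against its inhibitor within a library, as log2 of the ratio of counts to Timp1 with 2 added to each, a description without a test that is read between groups only. The ratio of Mmp9 to Timp1 was -8.03 ± 0.76 (mean ± SD, n = 5) in control nerve. After immediate repair its mean was -0.072 ± 1.26 on day 7, then -1.91 ± 1.13 on day 14 and -2.06 ± 1.85 on day 21. In delayed repair it was -0.87 ± 1.28, -3.35 ± 1.08 and -4.01 ± 1.20. The ratio was thus at its highest at day 7 in both repairs and above control in every group. The ratio of Mmp2 to Timp1 ran the other way in time: 1.84 ± 0.59 in control, -0.98 ± 2.24 and 0.24 ± 1.25 at day 7 of immediate and delayed repair, and between 3.11 and 3.29 in the 4 later groups. At day 7 the mean ratio was thus above control for Mmp9 and below control for Mmp2, and at days 14 and 21 it was above control for both. For Mmp2 the libraries overlapped control, at 1.16 to 2.57, in 4 of the 6 repair groups. Day 7 reached 1.89 (immediate) and 1.75 (delayed), and immediate days 14 and 21 began at 2.345 and 2.343. The later delayed groups lay above control, from 2.86 and 2.95. For Mmp9 all repair libraries lay above control. The ratio of Mmp3 to Timp1 had a group mean of -5.41 in control and between -7.87 and -5.11 in the repair groups.

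**Figure D4:**
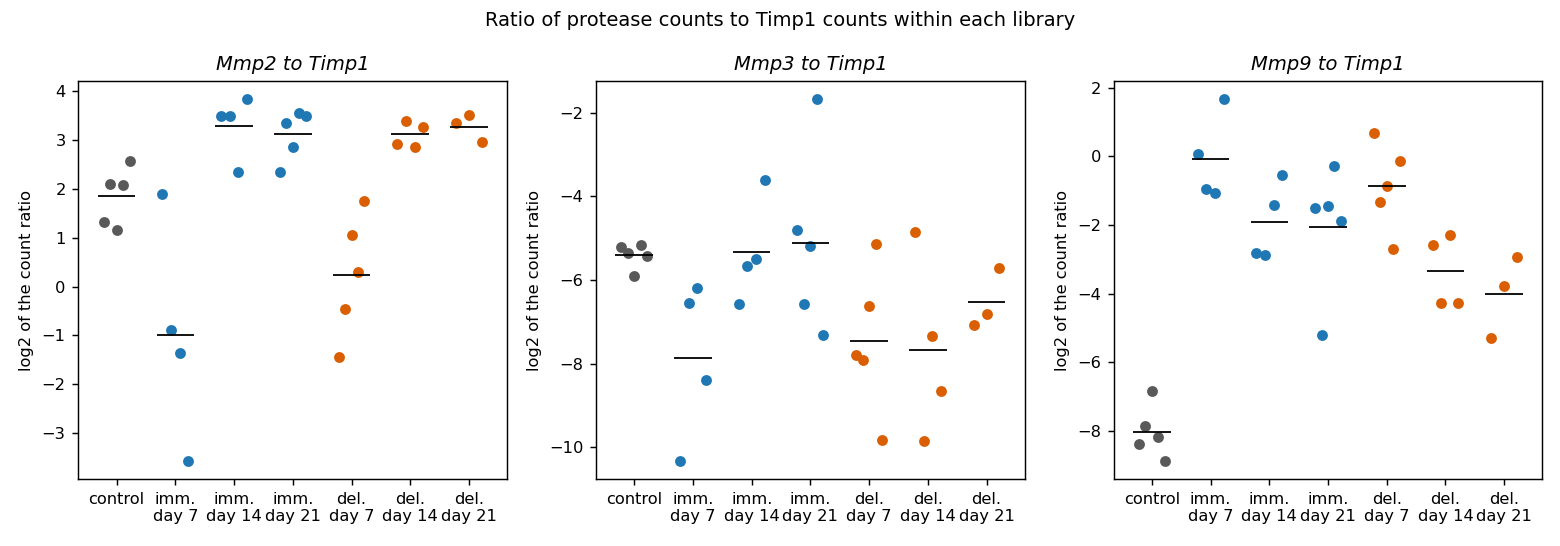
Log2 ratio of the counts of Mmp2, Mmp3 and Mmp9 to those of Timp1 in the same library (vertical axis), 1 point per library, by group along the horizontal axis, with bars at group means. The Mmp9 ratio has a mean of -8.03 in control and of -0.072 at day 7 of immediate repair, and the Mmp2 ratio has a mean of -0.98 in that group and of 3.11 to 3.29 in the 4 later groups.

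Ordered by mean level, the Mmp2 groups fell into an upper set of immediate day 14, delayed day 21, delayed day 14 and immediate day 21 (2331, 2324, 2279 and 2127 CPM) and a lower set of control, delayed day 7 and immediate day 7 (426, 269 and 196 CPM). Within each set, neighbours overlapped and differed by less than 1 SD. For Mmp9 the order was immediate day 7 (136 CPM), immediate day 21 (93.5), immediate day 14 (86.2), delayed day 7 (80.8), delayed day 14 (35.5), delayed day 21 (19.4) and control (0.369). All 3 immediate groups had a higher mean CPM than all 3 delayed groups, neighbouring conduit groups overlapped in range, and control alone lay apart. That order of the repairs depended on the measure. Delayed day 7 had a median of 99.9 CPM, against 82.1 at immediate day 14 and 84.1 at immediate day 21. Its mean log2 CPM was 6.20, against 5.98 and 5.87 in those groups. Immediate day 7 stayed highest by median (134 CPM) and by mean log2 CPM (6.99). The Timp1 groups ran from delayed day 14 (269 CPM), immediate day 21 (253), immediate day 14 (252) and delayed day 21 (243) to delayed day 7 (166), immediate day 7 (145) and control (114), and every pair of neighbours overlapped and differed by less than 1 SD. For Mmp3 the order was immediate day 21 (18.8 CPM), immediate day 14 (7.55), delayed day 14 (3.02), delayed day 21 (2.87), control (2.53), delayed day 7 (2.50) and immediate day 7 (0.998), with neighbours overlapping throughout.

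Among the 12472 genes whose log2 CPM averaged 1 or more, the pattern most like that of a member over the 30 libraries was found for Mmp2, with the Pearson correlation of log2 CPM as the measure. ENSRNOG00000010529 had r = 0.989 and ENSRNOG00000055962 had r = 0.987, given here as a description over libraries that share the 7 groups. The first stood at 143 ± 29.2 CPM (SD, n = 5) in control, 55.4 ± 97.6 CPM (n = 4) at immediate day 7 and 1098 ± 187 CPM (n = 4) at delayed day 14. Mmp2 had 303 genes above r = 0.9, Mmp9 had 16, and Mmp3 and Timp1 had none, with best values of 0.933 for Mmp9, 0.888 for Timp1 and 0.728 for Mmp3. By Spearman's rho 51 genes were above 0.9 for Mmp2 and 0 for Mmp9, and neither identifier was among the first 3 for Mmp2.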

How the data were processed

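The deposited table holds whole-number read counts per gene made by the authors, and the 30 libraries were grouped by their titles. Per the submitters' processing notes the tools include featureCounts 1.5.0-p3, DESeq2 1.38.3 and HISAT2 2.0.5, with no role stated; the build and annotation: not given in the sources used here. Per the labels' protocols, poly-A RNA was prepared into libraries that do not keep strand. From the counts, edgeR 4.0.16 (R 4.3.3) fitted all libraries in 1 model of 7 groups, with filterByExpr by group (minimum count 10), TMM factors (0.876 to 1.14) and robust quasi-likelihood dispersion. SEs are the log2 fold change over the square root of F, and intervals are 95%. With totals of 11958242 to 17334752 counts, Mmp9 in control and Mmp3 at day 7 rested on few counts. Replicates differed from each other beyond sampling noise in all 51 pairs (lowest chi-square per degree of freedom 15.7). Alternatives were other scaling factors, no filter, a prior count of 0.5, a replicate block, groups fitted alone, DESeq2 1.42.0, limma 3.58.1 voom, and each library left out. The members and lists were chosen with earlier results of these data known. Named genes were the 4 members and the 2 genes with the highest correlation to any member. Lists of other matrix protease genes and of cell type markers were not used, because none of the file's identifiers is paired with a symbol in the tables given. The script was tested on simulated data.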

Additional observations from a re-analysis of the deposited data

Results flagged for a closer look

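Of 24 groups of 4 or 5 libraries, 6 held a library far from the others by Dixon's criterion. The criterion was applied to CPM and not to log2 CPM, where a single high value stands out less. Its rate of about 1 in 20 by chance holds for normally distributed values, so the count is a description only. Mmp2 stood at 616 CPM in immediate day 7 replicate 1, against 101 CPM in the next highest library. Mmp3 stood at 10.3 CPM in delayed day 7 replicate 4 and at 70.4 CPM in immediate day 21 replicate 4. Mmp9 stood at 1.04 CPM in control replicate 3, against 0.312 CPM in the next highest control. Timp1 was high, at 411 CPM, in immediate day 21 replicate 1 and low, at 60.9 CPM, in immediate day 7 replicate 4, which also held the lowest Mmp2 value of all libraries.

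In 2 genes the difference from control had opposite signs at day 7 and later, with a called change between the days. For Mmp2 the change was 3.57 (day 14 against 7) and 3.44 (day 21 against 7) after immediate repair, and 3.08 and 3.11 after delayed repair. For Mmp3 it was 4.22 from day 7 to day 21 of immediate repair. The day 7 differences from control were not themselves called for either gene.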

How the results depend on the processing

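Over 68 results, 558 of 600 values under processing alternatives and 1974 of 2040 with a single library left out kept their direction and side of the threshold; the cause of the others was not tested. Mmp9 against control was called in all 6 groups under every alternative run. With the replicate block the values were 0.99 for Timp1 at delayed day 21 against control (adjusted p = 0.0672), 3.12 for Mmp3 from day 7 to 21 of immediate repair (0.0908), -0.27 and -0.20 for Mmp3 at delayed days 14 and 21 against control, and 0.068 for Mmp3 from delayed day 14 to 21. Replicate numbers did not pair the libraries throughout: in no comparison of 2 groups were all same-numbered pairs correlated above 0.1. At day 14 between the repairs 3 of 4 pairs were (r from 0.0836 to 0.41), and 3 of 4 were each other's best match. Whether the numbers pair libraries in part of the groups was left undecided. The block moved the calls between the repairs at day 7 from 114 to 0.

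With the groups fitted alone, Mmp3 against control was 1.62 (immediate day 14, adjusted p = 0.0179), 2.93 (immediate day 21, 0.0254) and 0.024 (delayed day 7), Mmp2 was 3.59 (immediate day 14 against 7) and 3.13 (delayed day 21 against 7), Mmp3 4.19 (immediate day 21 against 7, 0.0688) and Timp1 -0.0040 (immediate day 21 against 14). Timp1 in that last comparison was -0.00031 with relative log expression factors, -0.00029 with DESeq2 and -0.0043 without the 2 low day 7 libraries. DESeq2 gave 2.87 for Mmp3 at immediate day 21 against control and -2.07 for Mmp9 at delayed day 21 against 7. Without a filter, Mmp3 at delayed day 7 against control was 0.042. Library totals without scaling factors, added after seeing the data, moved the median of all genes by up to 0.26 and gave 3.03 for Mmp3 at immediate day 21 against control (0.0498) and 0.98 for Timp1 at immediate day 21 against 7 (0.0464), and -0.031 for Mmp2 from delayed day 14 to 21.

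Voom with library weights gave Mmp2 -1.90 (immediate day 7), Mmp3 -1.46 and -0.31 (delayed days 14 and 21 against control), -0.93 (immediate day 21 against 14), 2.79 (immediate day 21 against 7, 0.181), -0.16 (delayed day 14 against 7) and 1.15 (delayed day 21 against 14), and Mmp9 -0.65 (immediate day 21 against 14). Voom with a weight per group, added after seeing the data, gave Mmp2 -2.55, Mmp3 -1.23 and -0.041 (delayed days 14 and 21 against control), 4.55 (immediate day 21 against 7, 0.117) and 1.18 (delayed day 21 against 14), Mmp9 -0.13 (immediate day 21 against 14) and Timp1 0.97 (delayed day 14 against 7). Without the 2 day 7 libraries lowest in Mmp2, also chosen after seeing the data, Mmp3 was 2.91 (immediate day 21) and 0.32 (delayed day 7) against control, 3.81 (immediate day 21 against 7, 0.0566), -0.034 and -0.11 (delayed days 14 and 21 against 7), and Timp1 was 0.78 (delayed day 7 against control, adjusted p = 0.0362). By Spearman's rho the best likeness was 0.957 for Mmp2, 0.694 for Mmp3, 0.808 for Mmp9 and 0.86 for Timp1.

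With single libraries left out, the ranges against control were -2.91 to -0.71 for Mmp2 at immediate day 7, 0.79 to 1.29 and 0.91 to 1.27 for Timp1 at immediate days 14 and 21, 0.97 to 1.17 for Timp1 at delayed day 21, 1.23 to 3.20 for Mmp3 at immediate day 21, and -2.13 to 0.32, -1.54 to 0.66 and -0.59 to 0.48 for Mmp3 at delayed days 7, 14 and 21. Delayed against immediate, they were -0.80 to 2.03 for Mmp3 at day 7, -0.12 to 0.056 for Mmp2 at day 14, and -0.32 to 0.40, -0.062 to 0.45, -0.18 to 0.18 and -0.096 to 0.19 for Timp1 at days 7, 14 and 21 and the mean of days. From day 14 to 21 they were, after immediate repair, -0.34 to 1.96 (Mmp3), -0.29 to 0.58 (Mmp9) and -0.23 to 0.36 (Timp1), and after delayed repair -0.014 to 0.087 (Mmp2), -0.86 to 1.72 (Mmp3) and -0.27 to 0.013 (Timp1). Against day 7 they were 2.56 to 4.93 for Mmp3 at immediate day 21, -1.53 to 2.39 and -0.59 to 2.31 for Mmp3, 0.49 to 1.21 and 0.35 to 1.07 for Timp1 at delayed days 14 and 21, and -2.92 to -1.62 for Mmp9 at delayed day 21.

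Counts of all genes called moved by over 1.5 times over these alternatives between the repairs (114 at day 7, 0 to 341; 0 at day 14, up to 7; 8 at day 21, 0 to 57; 0 over the mean of days, up to 60), from day 14 to 21 (41, 0 to 170, and 0, up to 69) and against day 7 (5404, 3021 to 6129; 5557, 3347 to 6092; 4179, 983 to 5048). The interaction was not run with DESeq2 or voom. Depth limits Mmp9 in control and Mmp3 in the libraries with 0 to 3 counts.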
